A study of Homo sapiens with 24 samples.

Results

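The effect of 25 nM THZ2 on U2-OS cells was taken from 6 of 24 arrays: 3 labelled U2-OS with 25 nM THZ2 for 6 h and 3 labelled U2-OS with DMSO, the solvent control, for the same time. U2-OS is an established human osteosarcoma line, and THZ2 is a covalent inhibitor of the kinase CDK7 and a positional isomer of the inhibitor THZ1. The series also holds U2-OS arrays with 100 and 400 nM THZ2, and a second osteosarcoma line, SJSA-1, with 25, 100 and 400 nM THZ2 and with DMSO, again 3 arrays per group at 6 h. Total RNA was hybridised to Affymetrix PrimeView arrays, on which a gene is read by 1 or more probe sets, each made of many short probes. The labels number the arrays of a group from 1 to 3 and do not say whether they came from separate cultures, so p-values measure the spread between these arrays, which may be technical. Per the labels the labelling started from a fixed amount of total RNA, so a value is a level relative to the other genes of that array, and a smaller number of cells and a smaller amount of RNA per cell cannot be told apart in it.

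CDK7, with cyclin H and MAT1, forms the kinase module of the general transcription factor TFIIH. It phosphorylates the carboxy-terminal tail of RNA polymerase II when transcription starts, and it activates other kinases, among them CDK9, which acts in elongation, and kinases of the cell cycle. Short-lived transcripts, such as those of immediate early genes, are therefore commonly used to follow its inhibition.

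The 3 arrays with 25 nM THZ2 were close to the 3 DMSO arrays. Pearson correlations over genes were 0.9987 to 0.9990 among the 25 nM arrays, 0.9989 to 0.9991 among the DMSO arrays and 0.9977 to 0.9986 between the groups. The first principal component of the 6 arrays held 47.2% of the variance and separated the groups, with replicate 1 of 25 nM nearest to DMSO. The median intensity was 33.5 to 34.3 on the 25 nM arrays and 34.1 to 34.2 on the DMSO arrays. The poly-A spike-in probe sets averaged 5.66 ± 0.03 with 25 nM and 5.61 ± 0.03 with DMSO on the log2 scale (SD, n = 3 each). Summed over 14 osteoblast and mesenchymal markers, the level was 13342 to 13573 on the 25 nM arrays and 13472 to 13810 on the DMSO arrays. VIM, the brightest of them, stood at 7146 with 25 nM and 7251 with DMSO. Summed over 11 measured nervous tissue markers, the level was 810.4 to 838 on the 25 nM arrays and 793 to 838 on the DMSO arrays. For 10 blood and immune markers the sums were 323 to 351 with 25 nM and 343 to 354 with DMSO, and for 12 epithelial markers 3245 to 3415 with 25 nM and 3166 to 3291 with DMSO. The ranges of the groups overlapped for each of these lists. Single genes weighed heavily in the sums, such as NEFL at 452 and KRT18 at 2154 with 25 nM. A tissue shared by both groups would not show in this comparison. Of their members, 4 of 14 nervous and 4 of 12 blood markers on the array lay under an intensity of 12.7 with 25 nM.

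Between the groups, 13 of 16175 genes changed, 4 upwards and 9 downwards, and none by 2-fold on log2 of the intensity plus 16. On that scale EGR1, a zinc finger transcription factor of the immediate early class, fell most, and CARD8, an inflammasome sensor, rose most. The order of the falls depends on the added 16. By the ratio of mean intensities LOC105372733 (0.646) fell slightly more than EGR1 (0.655). KRCC1 lay under an intensity of 12.7 with 25 nM, and only a bound is given for it below. The others that fell were KRCC1, LOC105372733, ASF1B, SSU72, XYLT1, RSPH3, SLC46A1 and STON1, and the others that rose were CRISPLD1, ACOX3 and ZNF552. These were 0.0804% of the genes tested, 0.0247% risen and 0.0556% fallen, by limma on log2 of the intensity plus 16 with Benjamini-Hochberg adjustment at 0.05. The median change over all genes was -0.0023 on that scale, and the 5th and 95th percentiles were -0.12 and 0.14. Changes of genes below are on that scale unless said otherwise. For dim genes they are smaller in size than the log2 of the ratio of intensities. At an unadjusted p under 0.05 there were 659 genes.

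**Figure D1:**
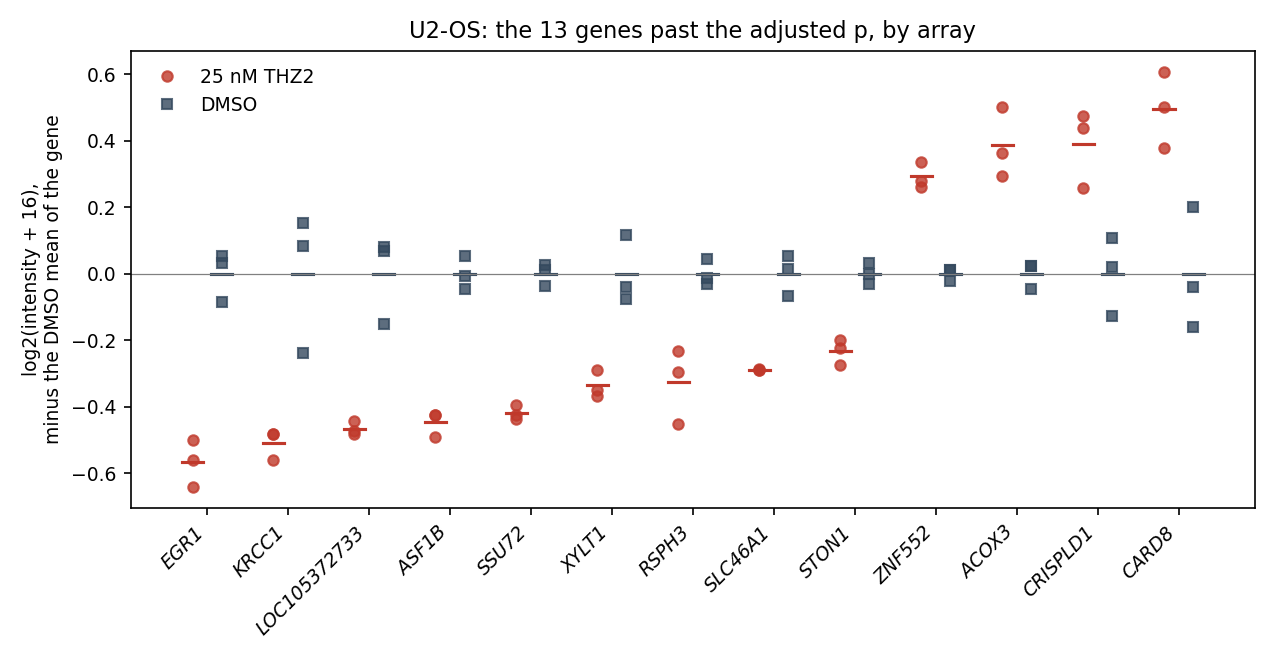
Level of each of the 13 changed genes on each U2-OS array, as log2 of intensity plus 16 minus the DMSO mean of that gene (circles, 25 nM THZ2; squares, DMSO; bars, group means of 3 arrays). The 25 nM arrays lie outside the range of the DMSO arrays for all 13 genes, from -0.57 for EGR1 to 0.50 for CARD8.

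The number of calls depended on which arrays supplied the estimate of the spread. Per gene, the SD of 3 arrays had a median of 0.0458 with 25 nM THZ2 and 0.0419 with DMSO in U2-OS. It was 0.0687 at 100 nM and 0.0833 at 400 nM in U2-OS, and 0.0795 to 0.113 in the 4 SJSA-1 groups. With all 24 arrays in the fit the median standard error of a change was 0.0837, with the 9 U2-OS arrays normalized together 0.0534, and with the 6 arrays alone 0.0431. The 9-array fit called 311 genes (1.92%). The 6-array fit called 489 genes higher (3.02%) and 322 lower (1.99%), again none by 2-fold, and both smaller fits called all 13. The 6-array count fell to 109 without replicate 3 of 25 nM and to 117 without replicate 2 of 25 nM, and was 1070 without replicate 1. Without DMSO replicates 1, 2 and 3 it was 210, 328 and 177. Where a gene is said to have passed in the 6-array fit, no rise or fall is claimed for it unless it is 1 of the 13; the others so named had adjusted p-values of 0.00016 to 0.049 in that fit. Over all genes, 2103 (13%) had their 3 arrays with 25 nM above the 3 DMSO arrays and 1778 (11%) had them below.

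**Figure D2:**
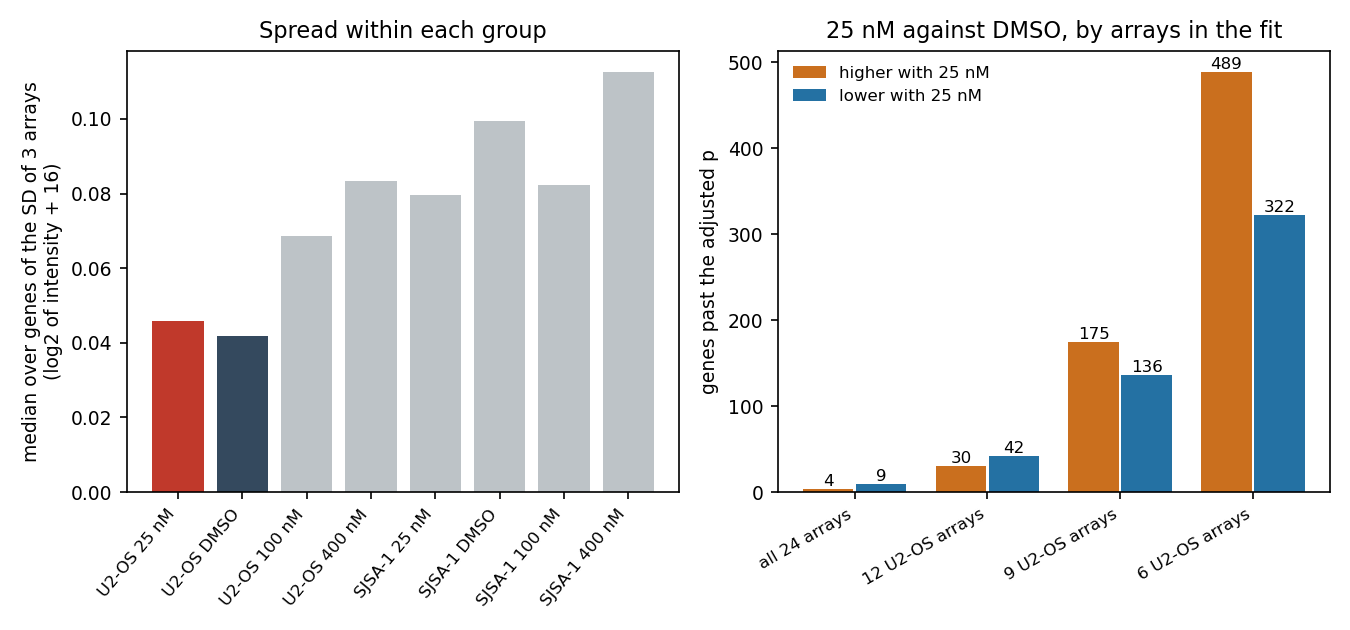
Left, the median over genes of the SD of 3 arrays on the log2 scale, by group (red, U2-OS 25 nM THZ2; dark, U2-OS DMSO; grey, the other groups). Right, genes past an adjusted p of 0.05 for U2-OS 25 nM THZ2 against DMSO by the arrays in the fit, from 4 higher and 9 lower with all 24 arrays to 489 higher and 322 lower with 6.

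EGR1 is induced within minutes by growth factor signalling and is often used as a readout of it. It read 176, 168 and 158 on the 3 arrays with 25 nM THZ2, against 261, 265 and 239 (the authors' linear intensities) on the 3 DMSO arrays. All 3 treated arrays were below all 3 controls, and the groups did not overlap. The change was -0.57 (SE 0.11, adjusted p = 0.026), a ratio of 0.655 of the mean intensities. All 6 probe sets of EGR1 were lower with 25 nM, the 3 brightest by 0.44 to 0.57. EGR1 did not follow the dose in 1 direction: the means were 255 ± 13.9 with DMSO, 167 ± 9.11 at 25 nM and 349.6 ± 29.1 at 100 nM (SD, n = 3 each). Relative to 25 nM, it rose by 0.99 at 100 nM (SE 0.11, adjusted p = 1.7e-08). At 400 nM it stood at 1437 ± 217, on arrays normalized apart from the others. In SJSA-1 it read 40.8 ± 4.38 with 25 nM and 37.8 ± 8.69 with DMSO, and the difference between the lines in the 25 nM effect passed at -0.65 (SE 0.15, adjusted p = 0.031).

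The promoter of EGR1 is shown because this gene changed most and rose at the next dose. The RefSeq table of GRCh38.p14 promoters, 250 bases before to 50 after a start, held 10 of the 13 genes. In EGR1 (chr5:138465229-138465528, plus strand) the capitals mark 2 matches to the CArG box, the site of serum response factor, which 1.21% of 12926 promoters of tested genes and 1.29% of all 27305 promoters held at least once. ASF1B (chr19:14136540-14136839, minus strand) held 3 CCAAT boxes, in capitals and read on the other strand as ATTGG, a motif of 36.1% of the promoters of tested genes. CARD8 (chr19:48255897-48256196, minus strand) held 1 TATAAA, found in 7.96%, and was 40.0% G and C, against a median of 64% over promoters of tested genes. ACOX3 (chr4:8440674-8440973, minus strand) held 1 TGACGTCA, the cAMP response element, found in 2.76%. Both strands were searched for each motif. Only 1 kind of motif was marked per promoter, and the GC box GGGCGG, found 1 time each in ASF1B and ACOX3, was not. KRCC1, without a match to any motif searched, and LOC105372733, with 1 GC box, fell more than ASF1B and are not printed. A match describes the sequence and does not show that a factor binds there.
EGR1: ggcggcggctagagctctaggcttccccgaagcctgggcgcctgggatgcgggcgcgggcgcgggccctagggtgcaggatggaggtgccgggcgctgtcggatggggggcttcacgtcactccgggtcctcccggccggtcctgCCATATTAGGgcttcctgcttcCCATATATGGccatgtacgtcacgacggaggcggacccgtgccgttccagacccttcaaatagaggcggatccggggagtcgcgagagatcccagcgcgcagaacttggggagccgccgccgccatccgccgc
ASF1B: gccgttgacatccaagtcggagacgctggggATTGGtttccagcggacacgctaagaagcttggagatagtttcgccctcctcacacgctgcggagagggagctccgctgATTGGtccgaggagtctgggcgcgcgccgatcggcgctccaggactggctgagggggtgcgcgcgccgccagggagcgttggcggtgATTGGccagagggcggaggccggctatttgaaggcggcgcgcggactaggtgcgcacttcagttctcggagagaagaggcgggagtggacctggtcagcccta
CARD8: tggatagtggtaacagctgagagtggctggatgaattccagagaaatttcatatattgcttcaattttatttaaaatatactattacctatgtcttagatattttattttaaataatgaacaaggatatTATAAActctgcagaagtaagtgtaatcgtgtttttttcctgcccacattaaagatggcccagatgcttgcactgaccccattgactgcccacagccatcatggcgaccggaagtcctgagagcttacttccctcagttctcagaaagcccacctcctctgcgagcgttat
ACOX3: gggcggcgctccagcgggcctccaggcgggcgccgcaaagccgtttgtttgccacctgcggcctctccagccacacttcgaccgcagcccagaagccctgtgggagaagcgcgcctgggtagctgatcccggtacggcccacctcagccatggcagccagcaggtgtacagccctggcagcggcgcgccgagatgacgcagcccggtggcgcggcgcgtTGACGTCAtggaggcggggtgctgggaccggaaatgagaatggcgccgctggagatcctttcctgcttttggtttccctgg

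Motifs were also counted over the larger sets of the 6-array fit. The GC box GGGCGG stood in 70.7% of 416 promoters of genes called higher, in 72.0% of 254 promoters of genes called lower and in 63.0% of promoters of tested genes. The TATAAA motif stood in 6.01% of those called higher, in 8.27% of those called lower and in 7.96% of all tested. The CArG box stood in 7 of 416, 5 of 254 and 157 of 12926. These shares are descriptions and were not tested.

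Of the other immediate early genes, FOSL1 was the lowest. The list had 32 tested members with a median change of -0.03, against -0.0023 over all genes, and 7 members had their 25 nM arrays below and 3 above all DMSO arrays, against 11% and 13% of all genes. In the 6-array fit, 5 members passed, all lower, against 1.99% of all genes called lower in that fit: EGR1, FOSL1 (-0.25, adjusted p = 0.048), JUN (-0.21, 0.0092), CCN1 (-0.17, 0.018) and ZFP36L1 (-0.14, 0.049). In the 9-array fit FOSL1 and ZFP36L1 did not pass (adjusted p = 0.065 and 0.063), and the other 3 did. FOSL1 and JUN encode subunits of the AP-1 factor, and ZFP36L1 a protein that destabilises AU-rich messenger RNAs. The 16 MAP kinase phosphatases, feedback inhibitors of the pathway that induces immediate early genes, had a median of -0.06. Of these 16, DUSP1 (-0.23, adjusted p = 0.047) and DUSP16 (-0.22, 0.035) passed lower in the 6-array fit, against 1.99% of all genes called lower there. Both had adjusted p-values over the threshold in the 9-array fit, 0.079 and 0.13.

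SSU72 is a phosphatase that removes phosphate from serine 5 of the RNA polymerase II tail, a residue that CDK7 phosphorylates. It read 260.1, 254 and 252 with 25 nM THZ2, against 353, 338 and 349 with DMSO. The groups were clearly apart, with less spread among the treated arrays than between groups. SSU72 fell by 0.42 (SE 0.08, adjusted p = 0.024). Of its 6 probe sets 4 were lower and 2 were higher, by 0.11 and 0.12. At 100 nM it stood at 274 ± 20.4, without a difference from 25 nM past the threshold (0.09, adjusted p = 0.33). At 400 nM, on arrays normalized apart, it stood at 485 ± 28.2. In SJSA-1 it fell more, to 378 ± 14.6 with 25 nM, against 727 ± 60.3 with DMSO (-0.91), and the line difference passed at 0.50 (adjusted p = 0.024).

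ASF1B encodes a chaperone that delivers histones H3 and H4 to replicating chromatin. It read 75.1, 71.0 and 75.1 with 25 nM THZ2, against 111, 105.6 and 102 with DMSO, with no overlap. The fall of 0.45 (SE 0.08, adjusted p = 0.024) was shared in direction by all 3 of its probe sets. ASF1B fell further by 0.31 at 100 nM relative to 25 nM (adjusted p = 0.0039). At 400 nM, on arrays normalized apart, it stood at 103 ± 8.10. In SJSA-1 a dose of 25 nM gave 149.7 ± 10.9, against 343 ± 32.0 with DMSO, a fall of 1.11, and the line difference passed at 0.67 (adjusted p = 0.0041). The 44 genes of DNA replication that were tested had a median change of 0.02. In the 6-array fit 6 of them passed higher, up to GINS3 (0.26, adjusted p = 0.0042), and 1 lower, GINS1 (-0.18, 0.016), both subunits of the GINS complex of the replicative helicase. Of all genes, 3.02% were called higher and 1.99% lower in that fit. In the 9-array fit 2 passed higher, GINS3 among them, and 0 lower, with an adjusted p of 0.062 for GINS1. That fit called 1.92% of all genes in either direction.

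KRCC1 had the lowest readings of the 13. It read 8.48, 7.20 and 8.48 with 25 nM THZ2, against 20.2, 22.0 and 12.98 with DMSO. The treated arrays lay below 12.7, the 30th percentile of intensity over the whole table, so only a bound is given: KRCC1 was at least 1.45-fold lower with 25 nM, with each array set to no less than that intensity. The adjusted p of the fit was 0.0018. In SJSA-1 it fell too, to 18.01 ± 4.10 with 25 nM, against 48.2 ± 4.50 with DMSO.

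SLC46A1, the proton-coupled folate transporter, read 29.58, 29.65 and 29.58 with 25 nM THZ2 and 40.3, 41.9 and 37.2 with DMSO. The fall of 0.29 (adjusted p = 0.043) went on to 100 nM, where the mean of 11.6 ± 0.21 lay under the intensity of 12.7. At 400 nM, on arrays normalized apart, the mean was 31.5 ± 0.85. In SJSA-1 SLC46A1 read 18.6 ± 2.49 with 25 nM and 40.1 ± 3.60 with DMSO, and the line difference passed at 0.41 (adjusted p = 0.011). XYLT1, the xylosyltransferase that starts glycosaminoglycan chains, averaged 17.1 ± 0.96 with 25 nM and 25.8 ± 3.05 with DMSO. RSPH3, a radial spoke protein of cilia, averaged 50.9 ± 5.13 with 25 nM and 67.7 ± 2.36 with DMSO. STON1, an endocytic adaptor, averaged 17.4 ± 0.90 with 25 nM and 23.2 ± 0.87 with DMSO. LOC105372733, to which the files give no function, averaged 37.7 ± 0.73 with 25 nM and 58.4 ± 6.59 with DMSO. These 4 fell by 0.33, 0.33, 0.23 and 0.47 on log2 of the intensity plus 16. The ratios of their mean intensities were 0.663, 0.752, 0.749 and 0.646. Each fell further from 25 to 100 nM, XYLT1 to a mean of 8.76 ± 0.78 that lay under 12.7.

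Of the 4 genes that rose, CARD8 read 41.0, 46.0 and 50.8 with 25 nM THZ2, against 26.6, 34.3 and 23.2 with DMSO. The groups did not overlap, and the spread within each was wide. The rise was 0.50 (SE 0.09, adjusted p = 0.014). It rested on 2 of the 10 probe sets of CARD8, at 0.53 and 0.50, while the other 8 lay between -0.07 and 0.05, and 6 of those were below 0. At 100 nM CARD8 stood at 29.4 ± 0.73. ACOX3, a peroxisomal oxidase of branched fatty acids, read 39.6, 42.2 and 48.1 with 25 nM, against 30.04, 27.9 and 29.99 with DMSO (0.39, adjusted p = 0.018). In SJSA-1 ACOX3 read 18.9 ± 1.63 with 25 nM and 24.2 ± 0.69 with DMSO, and the line difference passed at 0.59 (adjusted p = 0.0016). CRISPLD1, a secreted cysteine-rich protein, averaged 72.3 ± 6.93 with 25 nM and 51.4 ± 5.51 with DMSO. ZNF552, a zinc finger gene, averaged 43.6 ± 1.59 with 25 nM and 32.7 ± 0.62 with DMSO. It was the only one called among 396 tested genes named ZNF, against 0.0804% of all genes called, and the median change of the 396 was 0.01.

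Most of the 13 were dim: 10 had a mean under 100 in both groups. Of the 9 with more than 1 probe set, 5 had at least 1 probe set of the opposite sign. These were SSU72 and CARD8, as given above, STON1 (1 of 2), SLC46A1 (1 of 3) and CRISPLD1 (1 of 5). Only KRCC1, LOC105372733, XYLT1 and STON1 kept their call whichever of the 6 arrays was left out of the 24-array fit. LOC105372733, XYLT1 and STON1 lay under 12.7 with 25 nM and with DMSO in SJSA-1, and those dim arrays entered their estimate of the spread. Their standard errors were 0.067, 0.047 and 0.034, against a median of 0.0837 over genes. In the 6-array fit they were 0.060, 0.049 and 0.036, against 0.0431. Keeping a call is thus no measure of how tight the U2-OS arrays were. EGR1, ASF1B, SSU72, SLC46A1 and ZNF552 lost theirs whichever array was left out, with the same sign each time. Of the 9 that fell, 6 fell further from 25 to 100 nM, against 23.3% of all genes, 1 (EGR1) rose, and 2 did not pass that step. That step shares the 25 nM arrays with the comparison that chose these genes, so the step and the change at 25 nM are not independent, for EGR1 as for the rest.

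**Figure D3:**
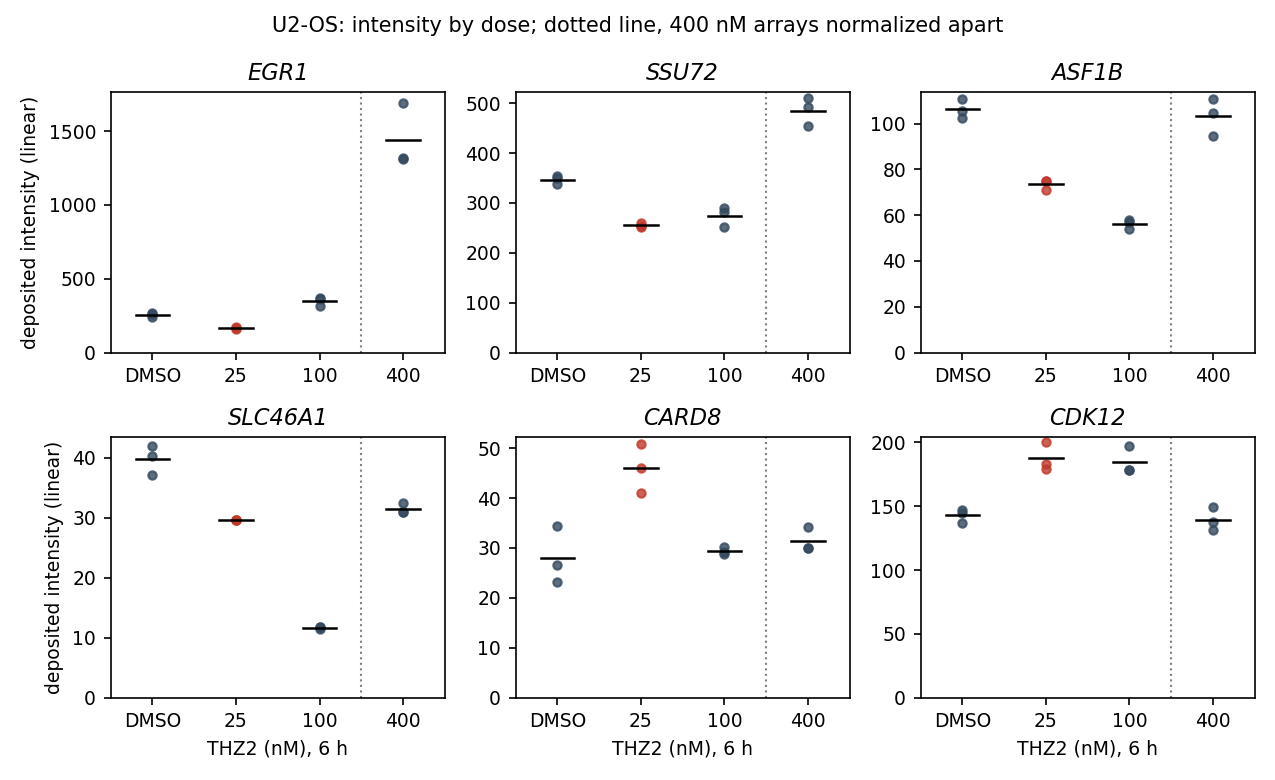
Deposited linear intensity of 6 genes in U2-OS by THZ2 dose at 6 h, from DMSO to 400 nM (points, arrays; bars, means of 3; red, 25 nM). EGR1 dips at 25 nM to 167 and stands at 349.6 at 100 nM, SLC46A1 goes down to 11.6 at 100 nM, and CARD8 is highest at 25 nM; the 400 nM arrays were normalized apart.

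The transcripts of the drug's target complex stayed within 0.12 of DMSO on the log2 scale at 25 nM. CDK7 read 549, 587 and 583 with 25 nM THZ2, against 528, 565 and 549 with DMSO, and the groups overlapped (0.06, SE 0.10). CCNH, which encodes cyclin H, and MNAT1, which encodes MAT1, differed by 0.07 and 0.01. The 8 tested genes of the CDK7 complex and TFIIH ranged from -0.12 for GTF2H1 to 0.07 for CCNH, with a median of 0.01. The related kinase CDK12, which phosphorylates the polymerase tail during elongation, read 183, 179 and 200.4 with 25 nM, against 145, 147 and 137 with DMSO. Its 3 treated arrays were above all 3 controls, and the difference of 0.36 had an adjusted p of 0.27 with all arrays and 0.0025 in the 6-array fit. CDK13 differed by 0.10 (SE 0.10). POLR2A, the largest subunit of RNA polymerase II, read 221, 239.6 and 223 with 25 nM, against 183, 194 and 181 with DMSO (0.27, adjusted p = 0.018 in the 9-array fit and 0.0065 in the 6-array fit). CDK12 stood at 185 ± 10.7 at 100 nM, and POLR2A at 381 ± 30.6.

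Medians of the lists of the transcription apparatus lay near that of all genes. In the list of P-TEFb and elongation control, with 32 genes tested, the median was 0.06. HEXIM1, which inhibits P-TEFb, was its highest member, with 603, 577 and 541 with 25 nM and 474, 442 and 416 with DMSO. HEXIM1 differed by 0.36, with an adjusted p of 0.44 with all arrays and 0.0025 in the 6-array fit. All 5 of its probe sets were higher, 3 dimmer ones by 0.56 to 0.68. BRD2, a bromodomain reader of acetylated histones, and ELL2, of the super elongation complex, also passed higher in the 6-array fit, by 0.23 (adjusted p = 0.018) and 0.20 (0.037). Thus 3 of the 32 passed higher and 0 lower, against 3.02% and 1.99% of all genes in that fit. Of 30 Mediator genes 9 had their treated arrays above and 1 below all controls, against 13% and 11% of all genes. MED28, MED23, MED21, MED31 and MED26 passed higher in the 6-array fit, by 0.16 to 0.24 (adjusted p = 0.004 to 0.036), against 3.02% of all genes called higher there, and 0 passed lower, against 1.99%. Of 34 genes of RNA polymerase II and its general factors, TAF11 (0.31, adjusted p = 0.0091), POLR2A, TAF5 (0.20, 0.02) and GTF2B (0.20, 0.0057) passed higher in the 6-array fit and TAF12 (-0.33, 0.019) lower. These 4 and 1 of 34 stand beside the same 3.02% and 1.99% of all genes. TAF11 and TAF12 are both subunits of TFIID, and their values were opposite in sign. In the 9-array fit ELL2, MED31, MED26, TAF5 and TAF11 did not pass, with adjusted p-values of 0.065 to 0.17. The others named from these lists passed in it.

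Beside SSU72, the list of cleavage, Integrator and termination genes held WDR33, its highest member, which recognises the polyadenylation signal. WDR33 read 190.4, 201 and 216 with 25 nM THZ2, against 146, 154 and 146 with DMSO. The difference of 0.41 had an adjusted p of 0.094 with all arrays and 0.0012 in the 6-array fit, but it rested on 1 of 7 probe sets, the brightest, and the others ran from -0.20 to 0.04. In the 6-array fit ZC3H4 (-0.33, adjusted p = 0.0062), INTS6 (-0.24, 0.0091), RPRD1A (-0.20, 0.039) and CPSF2 (-0.18, 0.04) passed lower with SSU72, and CPSF1 (0.028), CPSF6 (0.046) and PAPOLA (0.031) passed higher with WDR33. Only SSU72, ZC3H4 and WDR33 of these also passed in the 9-array fit, and the others had adjusted p-values of 0.065 to 0.10 there. The median over the 39 tested genes was 0.05. In the 6-array fit 5 of the 39 passed lower and 4 higher, against 1.99% and 3.02% of all genes.

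**Figure D4:**
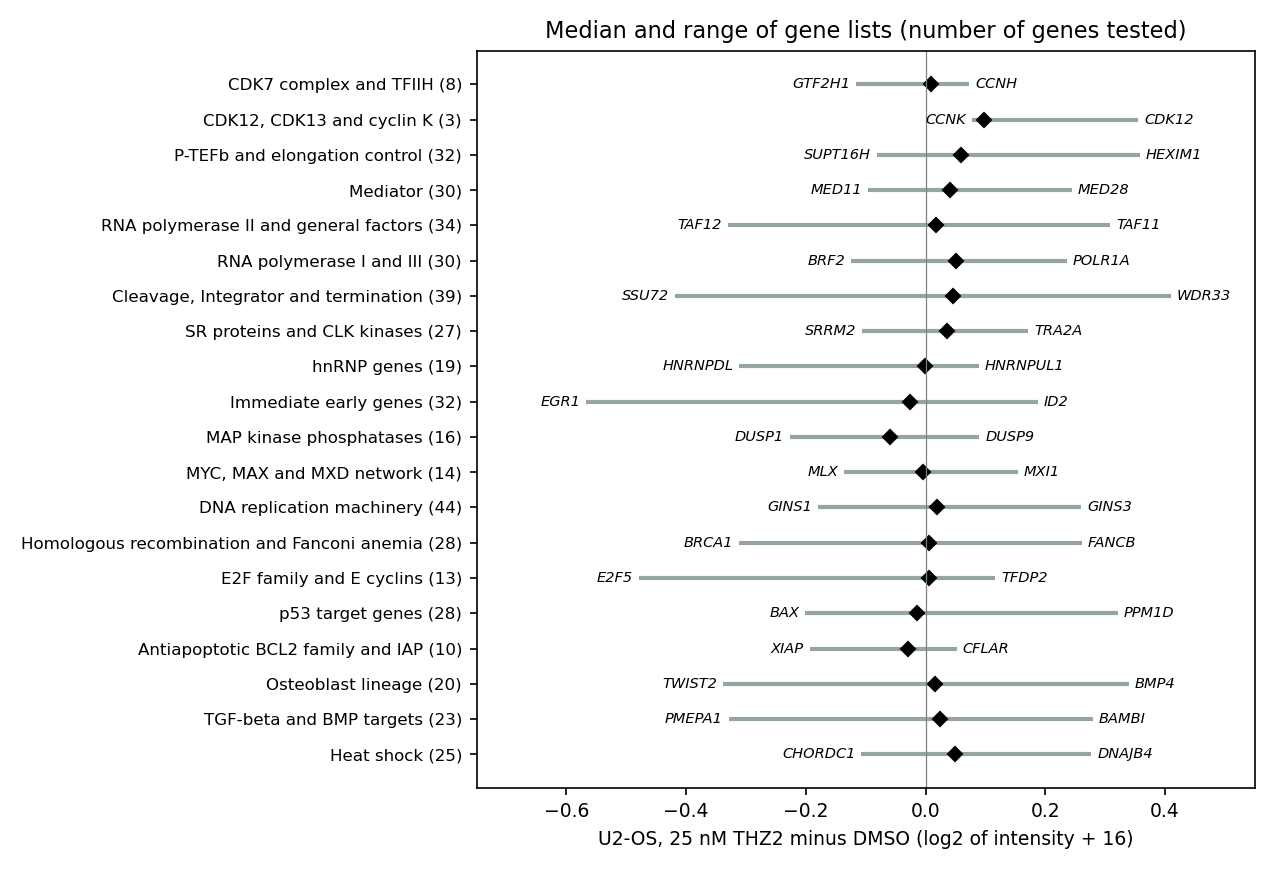
Change in U2-OS with 25 nM THZ2 minus DMSO (log2 of intensity plus 16) of 20 gene lists, with the number of genes tested (diamonds, medians; lines, lowest to highest member, both named). Medians lie between -0.06 and 0.10, and the widest lines reach EGR1 at -0.57 and WDR33 at 0.41, each by the probe set that is brightest on average; of the members named, only EGR1 and SSU72 passed with all arrays.

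MYC, RUNX2, MCL1, MDM2, CDK4 and CDKN1A differed by 0.17 or less in size at 25 nM. MYC, a driver of cell growth, read 733, 715 and 746 with 25 nM THZ2, against 796, 839 and 742 with DMSO, so the groups overlapped (-0.11, SE 0.10). RUNX2, the osteoblast transcription factor, read 169.9, 176 and 174 with 25 nM, against 143, 155 and 162 with DMSO, without overlap (0.17, SE 0.14). MCL1, a short-lived survival protein, differed by 0.002 and MDM2, the p53 ligase, by -0.02. CDK4 differed by -0.07 and CDKN1A, the p53 target p21, by -0.08. Adjusted p-values of these 6 and of CDK7, CCNH, MNAT1, CDK12, CDK13 and POLR2A were 0.27 or above with all arrays. At 100 nM MYC stood at 429 ± 8.76, RUNX2 at 89.0 ± 9.17 and MCL1 at 476 ± 24.7, and each of these fell relative to 25 nM (-0.75, -0.85 and -0.47).

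Single members of the remaining lists passed in the 6-array fit, which called 3.02% of all genes higher and 1.99% lower. E2F5, a repressor-type E2F factor, read 31.2, 27.6 and 25.7 with 25 nM THZ2, against 42.1, 48.5 and 46.0 with DMSO, the lowest of its list at -0.48 (adjusted p = 0.059 with all arrays and 0.00097 in the 6-array fit). BRCA1 read 102, 108 and 108 with 25 nM and 123, 145 and 139 with DMSO (-0.31, adjusted p = 0.009 in the 6-array fit). RAD51C (-0.21, 0.0043) and RMI1 (-0.22, 0.02), also of homologous recombination, passed lower, and FANCB (0.26, 0.025) and FANCM (0.23, 0.041) higher. PPM1D, a phosphatase induced by p53, read 250.2, 259 and 269 with 25 nM and 189, 198 and 229 with DMSO (0.32, adjusted p = 0.01), while BAX (-0.20, 0.014) and GADD45A (-0.17, 0.019), also p53 targets, passed lower. BMP4 (0.34, adjusted p = 0.005) and TWIST2 (-0.34, 0.0043) were the ends of the osteoblast list, and their values were opposite in sign. PMEPA1, an inhibitor of TGF-beta signalling that the pathway itself induces, read 1329, 1348 and 1325 with 25 nM and 1737, 1636 and 1666 with DMSO (-0.33, adjusted p = 0.00016). EGFR (-0.27, adjusted p = 0.0045), XIAP (-0.19, 0.018), DDIT3 (-0.32, 0.022) and HNRNPDL (-0.31, 0.0021) passed lower, and DNAJB4 (0.28, 0.014) and HSPA1B (0.23, 0.0096) of the heat shock list higher. The brightest probe sets of HNRNPDL changed by -0.31 and -0.24, and the others by -0.08, -0.04 and 0.03. Those of EGFR ran from -0.27 to -0.002. In the 9-array fit BRCA1, RMI1, FANCM, EGFR and XIAP did not pass, with adjusted p-values of 0.051 to 0.24, and the others named did. These genes were singled out as list members after their values were seen.

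Lists of general metabolism and translation had medians close to 0. The 72 cytosolic ribosomal protein genes had a median of 0.00, with 6 members above and 8 below all DMSO arrays. Of 74 mitochondrial ribosomal protein genes 18 were above and 6 below, with MRPS6 lowest at -0.27. Of 50 ribosome biogenesis genes 13 were above and 2 below, and of 17 cholesterol synthesis genes 7 were above and 0 below, with a median of 0.06. The 72 oxidative phosphorylation genes had 10 above and 4 below, from NDUFB1 at -0.14 to SDHA at 0.23. Of 23 chemokines and cytokines 0 were above and 5 below, from LIF at -0.13 to CCL2 at 0.13. These counts stand beside the 13% and 11% of all genes given above, and with all arrays in the fit the calls within the lists were EGR1, SSU72 and ZNF552.

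The next dose changed far more genes. Relative to 25 nM, 4011 genes rose (24.8%) and 3771 fell (23.3%) at 100 nM, 39 and 647 of them by at least 2-fold. Against DMSO, 6797 genes (42%) changed at 100 nM, with the DMSO arrays shared with the 25 nM comparison. The spike-in probe sets stood 0.05 above DMSO at 25 nM and 0.50 at 100 nM (log2). With arrays centred on their median, 8665 genes rose and 3026 fell in this step, so the split of risen and fallen genes depended on the scaling. The largest fall was that of ST6GALNAC5, a sialyltransferase, by 3.21, to 48.6 ± 3.43 at 100 nM; it read 589, 582 and 572 with 25 nM, against 646, 693 and 683 with DMSO. PMEPA1 fell by 3.15 to 136 ± 13.9. ZBED5, TUBGCP3, IRS1, YAE1, BCL11A and ZC3H4 fell by 2.33 to 2.80. EID3 (2.71), NFYA (2.43), CXCL8 (2.28), SAT1 (2.20), PANX1 (2.05), C11orf96 (2.04), SNORA65 (1.78) and CCL20 (1.76) rose most. At 25 nM against DMSO the lowest adjusted p among these 16 genes was 0.12, for C11orf96, and the changes ran from -0.33 for PMEPA1 and ZC3H4 to 0.34 for C11orf96. TUBGCP3, which builds the gamma-tubulin ring, read 280.1, 277 and 283 with 25 nM and 269, 291 and 277 with DMSO, although it went down to 33.2 ± 3.04 at 100 nM.

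The same dose in SJSA-1, measured on other arrays, changed more genes: 319 rose (1.97%) and 1016 fell (6.28%), 5 and 6 of them by 2-fold. Of the 1016, 809 (79.6%) were below 0 in U2-OS at 25 nM, against 51.4% of all genes, with a median of -0.07. Of the 319 that rose in SJSA-1, 51 (15.99%) were below 0 in U2-OS, with a median of 0.12. With all arrays in the fit 4 of the 1016 fell and 0 rose in U2-OS, and in the 6-array fit 178 were lower and 0 higher. Of the 319, 1 rose in U2-OS (CARD8) and 108 were higher and 1 lower in the 6-array fit. The genes that fell at least 2-fold in SJSA-1 at 100 nM, 1003 in number, had a median of -0.0018 in U2-OS at 25 nM, with 50.3% below 0. Their 5th percentile was -0.23, against -0.12 over all genes, and in the 6-array fit 100 were lower and 44 higher. Of the 71 that rose at least 2-fold there, 21.1% were below 0 in U2-OS, with a median of 0.08, and 22 were higher and 1 lower in the 6-array fit. Genes are not independent replicates, so these shares carry no test.

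**Figure D5:**
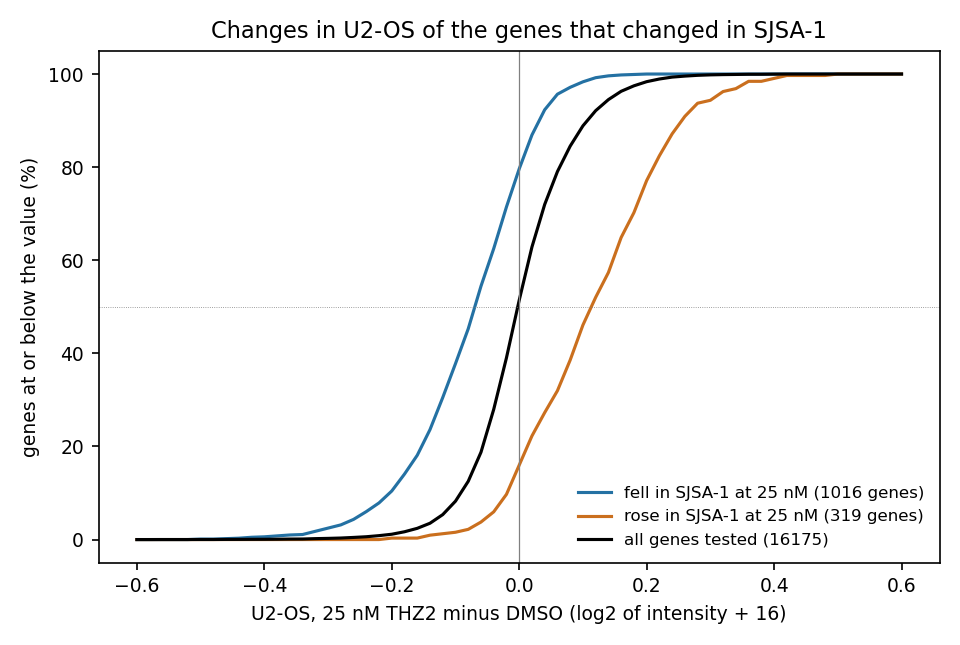
Cumulative share of genes (%) by their change in U2-OS with 25 nM THZ2 minus DMSO (log2 of intensity plus 16), for genes that fell in SJSA-1 at 25 nM (1016), that rose there (319) and for all 16175 tested. At a change of 0 the curves stand at 79.6%, 15.99% and 51.4%.

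The test of the difference between the lines in the 25 nM effect passed for 177 genes (1.09%), 148 positive and 29 negative, as U2-OS minus SJSA-1. The arrays of the 2 lines were taken as normalized apart from each other. Of these 172 had changed in SJSA-1 and 8 in U2-OS, and 3 in both: ASF1B, SSU72 and SLC46A1. Of the positive ones 146 had fallen in SJSA-1, and of the negative ones 26 had risen there. ST6GALNAC5 differed by -0.21 in U2-OS (adjusted p of the line difference 4.6e-07). In SJSA-1 it read 7.65 ± 2.30 with 25 nM, under the intensity of 12.7, against 57.6 ± 8.77 with DMSO, and was thus at least 4.53-fold lower. NABP1, a protein that binds single-stranded DNA, differed from DMSO by -0.13 in U2-OS, against -1.20 in SJSA-1. On the negative side, KMT5B, a histone H4 methyltransferase, stood 0.35 above DMSO in U2-OS, against 1.39 in SJSA-1, a line difference of -1.04. SNORA3B and SNORA26, small nucleolar RNAs that guide pseudouridylation, differed from DMSO by 0.06 and -0.03 in U2-OS, against 1.23 and 0.995 in SJSA-1. Of the 13 genes changed in U2-OS, 5 had both SJSA-1 group means under the intensity of 12.7 (LOC105372733, XYLT1, RSPH3, STON1 and CRISPLD1), and a fold in that line is not given for them.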

How the data were processed

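Gene expression was measured on 24 Affymetrix PrimeView arrays of U2-OS and SJSA-1 cells. The authors deposited a linear intensity for each probe set on each array. MAS5 and RMA are both listed, per the submitters' processing notes, with no word on which one produced the table; versions are not given in the sources used here. Per the labels' protocols the RNA was extracted with TRIzol in one place, while another names a column kit and another tissue, which is why marker lists of other tissues were checked. The overlap of the groups in these lists does not settle which protocol applies, since both groups would share it. Exactly equal values were shared by 1.67 to 5.47% of probe sets among the 9 arrays of U2-OS treated with DMSO, 25 nM or 100 nM, and by at most 0.00405% between these and the 400 nM arrays, so the 400 nM arrays were taken as normalized apart. Of 49372 probe sets, 44988 named 1 gene in the platform annotation, 1832 several and 2473 none, besides 79 controls. Where a gene had several probe sets the brightest one on average was used, and 16175 of 18132 genes whose highest group mean reached the 30th percentile of all values were tested. Values were taken as log2 of intensity plus 16. All 24 arrays were fitted with 8 group means in limma 3.58.1 (R 4.3.3; lmFit, eBayes with an intensity trend, 16 residual degrees of freedom), and p-values were adjusted by Benjamini-Hochberg over all genes of each comparison, with a threshold of 0.05. The code was tested on simulated data. With 3 arrays against 3, an exact permutation test of a single gene cannot go below a two-sided p of 0.1, so none was used. The number of arrays limits the precision. The 12 genes named whatever their value, the gene lists and the rules were chosen with earlier results of these data known. The text names the 13 changed genes, the 8 largest in each direction of the 100 nM step and some of those of the line difference. List members beyond these were named after their values were seen. Promoters are from RefSeq, GRCh38.p14.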

Additional observations from a re-analysis of the deposited data

Results flagged for a closer look

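The 25 nM effect differed between U2-OS and SJSA-1 for 29 of the named genes, by the test of the difference between the lines in the limma fit with Benjamini-Hochberg adjustment. Over all genes tested 177 passed (1.09%). Of the 29, 16 had been named because their line difference was among the largest past the threshold. Their passing was thus fixed in advance, and the count of 29 is not a result about the named genes. Values are the U2-OS change minus the SJSA-1 change on log2 of the intensity plus 16, so a positive value means a higher change in U2-OS. Of the genes changed in U2-OS these were EGR1 (-0.65), ASF1B (0.67), SSU72 (0.50), XYLT1 (-0.29), SLC46A1 (0.41), STON1 (-0.21), CRISPLD1 (0.41) and ACOX3 (0.59). XYLT1, STON1 and CRISPLD1 lay under the intensity of 12.7 in both SJSA-1 groups. Among the largest positive differences were ST6GALNAC5 (1.43), NABP1 (1.07), LIAT1 (0.95), MOCS3 (0.93), ARHGEF39 (0.92), TMEM242 (0.87), OXTR (0.86) and NLRC5 (0.86). ST6GALNAC5 and OXTR lay under 12.7 with 25 nM in SJSA-1, and ADAMTS16 with DMSO there, so the size of their difference depends on that floor. Among the largest negative ones were SNORA3B (-1.17), KMT5B (-1.04), SNORA26 (-1.02), USP45 (-0.97), ANKRD36 (-0.88), ADAMTS16 (-0.83), VPS50 (-0.83) and NDST1 (-0.70). The genes of the 100 nM step added ZC3H4 (0.50) and C11orf96 (-0.45), and the ends of the gene lists added GTF2H1 (0.53), MED11 (0.58) and GINS1 (0.55). With 3 arrays per group, single arrays that stand apart within a group were not tested.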

How the results depend on the processing

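The 13 calls (4 risen, 9 fallen) rested on settings more than on direction: no named gene reversed its sign while past the threshold under any alternative run. Centring the arrays on the poly-A spike-ins left 0 calls in limma, 0 risen and 0 fallen, with 47 genes at an unadjusted p under 0.05; the spike-in SD was 0.86 at 400 nM and 0.40 with DMSO in SJSA-1, against 0.03 in both U2-OS groups compared. A pseudocount of 1 left 1 call, 0 risen and 1 fallen, KRCC1, which was then also the 1 gene counted as fallen by at least 2-fold, though its 25 nM arrays lay under 12.7, and a pseudocount of 64 gave 42, 15 risen and 27 fallen. Averaging all probe sets of a gene gave 23, 12 of them risen, with 6 of the 13 among them, and the fit without an intensity trend gave 20, 9 of them risen. The 12 U2-OS arrays gave 72 (30 risen, 42 fallen), the 9 normalized together 311 (175 and 136) and the 6 alone 811 (489 and 322). Without 25 nM replicates 1, 2 and 3 the counts were 9, 5 and 5, and without DMSO replicates 1, 2 and 3 they were 4, 6 and 5, with 0 to 5 risen and 4 to 5 fallen. Leaving 1 array out of the 6-array fit, a run added after the data were seen, gave 109 to 1070 genes, 48 to 713 higher and 60 to 357 lower. Ribosomal protein centring gave 11 calls, quantile normalization 14, a filter at the 50th percentile 11 and testing all genes 12. Median centring gave 13 calls, but 11691 changed genes in the step from 25 to 100 nM, against 7782 as deposited, with 74.1% of them risen, against 51.5%, and a median change of 0.18, against 0.06. The causes were not tested. Whether the replicate numbers pair the arrays was not settled: deviations of same-numbered arrays correlated at 0.084, 0.083 and -0.027. Replicates 1 and 2 of 25 nM correlated best with the same number of DMSO, and replicate 3 with DMSO replicate 2 (0.092). With the replicate block the count was 9, 8 of them among the 13. SJSA-1 at 25 nM gave 1316 to 1392 genes and the line difference 158 to 241 under their alternatives. Depth in the sense of counts does not apply to arrays; dim genes are limited by signal over background, and no detection call was used here.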
